A study of Mus musculus with 37 samples.

Results

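In this series, 10 genes of the cell cycle engine were followed: the D-type cyclins Ccnd1, Ccnd2 and Ccnd3 with their kinases Cdk4 and Cdk6, the E-type cyclins Ccne1 and Ccne2 with Cdk2, and the cyclins Ccna2 and Ccnb1. They were chosen by symbol and not by their values, out of the 51123 gene rows of a table of 37 libraries, and all 10 passed the filter on low values in both sets of libraries. The rows were Ccnd1 (ENSMUSG00000070348, chromosome 7), Ccnd2 (ENSMUSG00000000184, chromosome 6), Ccnd3 (ENSMUSG00000034165, chromosome 17), Cdk4 (ENSMUSG00000006728, chromosome 10), Cdk6 (ENSMUSG00000040274, chromosome 5), Ccne1 (ENSMUSG00000002068, chromosome 7), Ccne2 (ENSMUSG00000028212, chromosome 4), Cdk2 (ENSMUSG00000025358, chromosome 10), Ccna2 (ENSMUSG00000027715, chromosome 3) and Ccnb1 (ENSMUSG00000041431, chromosome 13).

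Osteosarcoma is a bone cancer, and the study asked what changes in bone marrow (BM) cells before and during its formation in mice. In SKO mice, Cre driven by the Osterix promoter (Osx1-Cre), which is active in osteoblast progenitors, deletes Trp53, and in DKO mice it deletes both Wwox and Trp53. A Rosa26-LSL-tdTomato reporter marks the cells in which Cre has acted. BM of mice without tumors (yBM), BM of tumor-bearing mice (BMT) and tumor tissue were put into culture, and RNA was taken after 3 passages. Set 1 held 16 libraries: control BM (n = 4), DKO yBM (n = 6, of which 1 to 3 came from mice of 1.5 months and 4 to 6 from mice of 4 months), DKO BMT (n = 3) and DKO tumor (n = 3). Set 2 held 21 libraries, with n = 3 each of control BM and of yBM, BMT and tumor cells from both SKO and DKO mice. The control mice are Cre-negative in the series description and wild-type in the methods. The study's methods describe cultures taken from several wild-type, tumor-free and tumor-bearing mice, and BMT cells of set 1 are called paired with tumors, but no label says which animal gave which library. The p-values therefore weigh a difference against the spread of the libraries, and BMT and tumor libraries may share animals.

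Cyclins are regulatory subunits that switch on cyclin-dependent kinases, and each family acts at its own stage of the cell cycle. D-type cyclins bind Cdk4 and Cdk6 in G1 and start the phosphorylation of Rb, which releases E2F factors. E-type cyclins with Cdk2 then drive entry into S phase, cyclin A2 acts through S phase and G2, and cyclin B1 with Cdk1 drives entry into mitosis. The transcripts of the E-type cyclins, Ccna2 and Ccnb1 rise and fall with the cycle, whereas those of D-type cyclins follow growth signals more than the phase.

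The promoters of Cdk4 and Ccnb1 are shown because these were the members that passed the test in the most comparisons. A promoter window was matched in RefSeq (GRCm38.p6) for 6 of the 10 members, and Ccnd1, Ccnd2, Ccne2 and Ccna2 were not matched. The 250 bases before the transcription start are printed 5′ to 3′ on the strand of the gene. Capitals mark CACGTG (the E-box, a site that Myc with Max can bind) in Cdk4, and CCAAT (the CCAAT box) and TTTAAA (a form of the cell cycle homology region) in Ccnb1.
Cdk4 promoter, chr10:127063285-127063534, + strand: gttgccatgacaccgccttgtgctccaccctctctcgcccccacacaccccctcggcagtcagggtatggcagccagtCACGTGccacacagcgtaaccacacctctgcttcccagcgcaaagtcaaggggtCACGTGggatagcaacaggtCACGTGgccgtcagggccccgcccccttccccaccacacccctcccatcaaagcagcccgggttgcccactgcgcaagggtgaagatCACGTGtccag
Ccnb1 promoter, chr13:100786487-100786736, − strand: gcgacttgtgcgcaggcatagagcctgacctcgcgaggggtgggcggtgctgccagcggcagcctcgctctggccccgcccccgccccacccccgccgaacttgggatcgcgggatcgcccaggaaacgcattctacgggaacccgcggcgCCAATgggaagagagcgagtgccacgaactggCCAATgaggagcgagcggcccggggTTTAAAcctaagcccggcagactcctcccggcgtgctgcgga
The Cdk4 window held CACGTG 4 times, at 172, 118, 98 and 11 bases before the start. At least 1 match on either strand was present in 6.02% of all 32851 promoter windows of this length, and at least 4 in 0.0213%. Among the other matched members, Cdk6 held 1 match and Ccne1, Cdk2, Ccnb1 and Ccnd3 none. The Ccnb1 window held CCAAT at 99 and 67 bases before the start and TTTAAA at 42 bases before it, without overlap. At least 2 CCAAT matches were present in 10.1% of windows, and TTTAAA in 12.1%. CCAAT was also found in the Cdk2 window and in 1 of the Ccnd3 windows, and TTTAAA in that of Ccne1. TTTCCCGC, a form of the E2F site, was found in the Cdk2 window and in 0.895% of all windows, while TTTGAA (16.0% of windows) and TTTGGCGC (0.417%) were found in no member's window. All motifs were searched on both strands. A match is a description of the letters, not of binding.

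Values are TPM, the share of all transcripts that a gene takes after correction for transcript length, so that levels can be set side by side between genes. They hold no sequencing depth, and counting error is therefore not given. The test was limma on log2(TPM + 1) with all groups of a set in the same fit. Genes with a Benjamini-Hochberg adjusted p below 0.05 over the 14404 genes tested in set 1 or 14458 in set 2 were called. Counts of members at an unadjusted p under 0.05 are descriptions, because no share of all genes under that limit is given. Changes are differences of mean log2(TPM + 1), a scale on which those of weakly expressed genes come out too small.

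Several libraries stood apart or went against their labels. Trp53 was at 3.34% to 23.8% of the control mean in the DKO and 1.35% to 7.88% in the SKO libraries of set 2, but at 63.3% and 72.1% in the libraries labelled DKO BMT 2 and 3 of set 1. Wwox was above 50% of the control median in 10 of the 21 libraries labelled DKO (in set 1 DKO yBM 2 to 6, DKO BMT 1 and DKO tumor 1, in set 2 DKO tumor 1 to 3) and below it in the libraries labelled SKO BMT 2 and 3. Control BM 3 of set 1 was itself at 29.0% of the control median (0.922 TPM), so the 50% limit does not set every control apart from deleted libraries. These values are sums over all transcripts of a gene, in which a transcript that lacks only the deleted exons is still counted. Mitochondrial genes took 32.5% of the TPM in control BM 1 of set 2, against 5.32% to 26.8% in all other libraries. The level of 20 leukocyte marker genes (mean log2(TPM + 1)) was 8.48 to 8.75 in the set 2 controls and 0.26 to 5.30 in the 18 knockout libraries of that set. In set 1 it was 6.24 to 8.35 in the controls and 0.42 to 7.91 in the knockout libraries. Among these, the DKO tumor libraries were at 0.42, 0.67 and 6.12, all below the controls. In bulk RNA, fewer cells of a type and less RNA per cell cannot be told apart. Col1a1 and Col1a2, collagen genes of mesenchymal and osteoblast cells, were at no less than 274 and 239 TPM in any library. The level of all 16 mesenchymal and osteoblast markers was 5.05 to 6.14 in the set 2 controls and 4.24 to 8.27 in their knockout libraries. In set 1 it was 5.95 to 6.25 and 5.61 to 7.69. In the set 2 controls these markers summed to 3636 to 4680 TPM, and the leukocyte markers to 23281 to 28608 TPM.

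Cdk4 had the highest median of the 10 members over the 37 libraries, 461 TPM (lowest 96.4, highest 1033). Ccnd2 was at 183 (27.6 to 1101), Ccnd1 was at 97.8 (9.29 to 540.1), Ccnd3 was at 79.8 (20.1 to 149), Ccna2 was at 46.5 (5.87 to 161), Ccnb1 was at 44.1 (2.68 to 128), Ccne1 was at 16.9 (2.00 to 42.7), Ccne2 was at 14.1 (1.36 to 40.4), Cdk2 was at 12.7 (3.04 to 29.9) and Cdk6 at 8.34 TPM (1.03 to 18.05). The ranges of neighbours in this order overlapped throughout, and the order differed between groups: the mean of Ccnd2 was above that of Cdk4 in control BM (505 and 313 TPM), DKO yBM (399.6 and 379 TPM) and DKO tumor (828 and 517 TPM) of set 1, and that of Ccnd1 in control BM of set 2 (354 and 202 TPM). The plot of TPM by library shows all values.

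**Figure D1:**
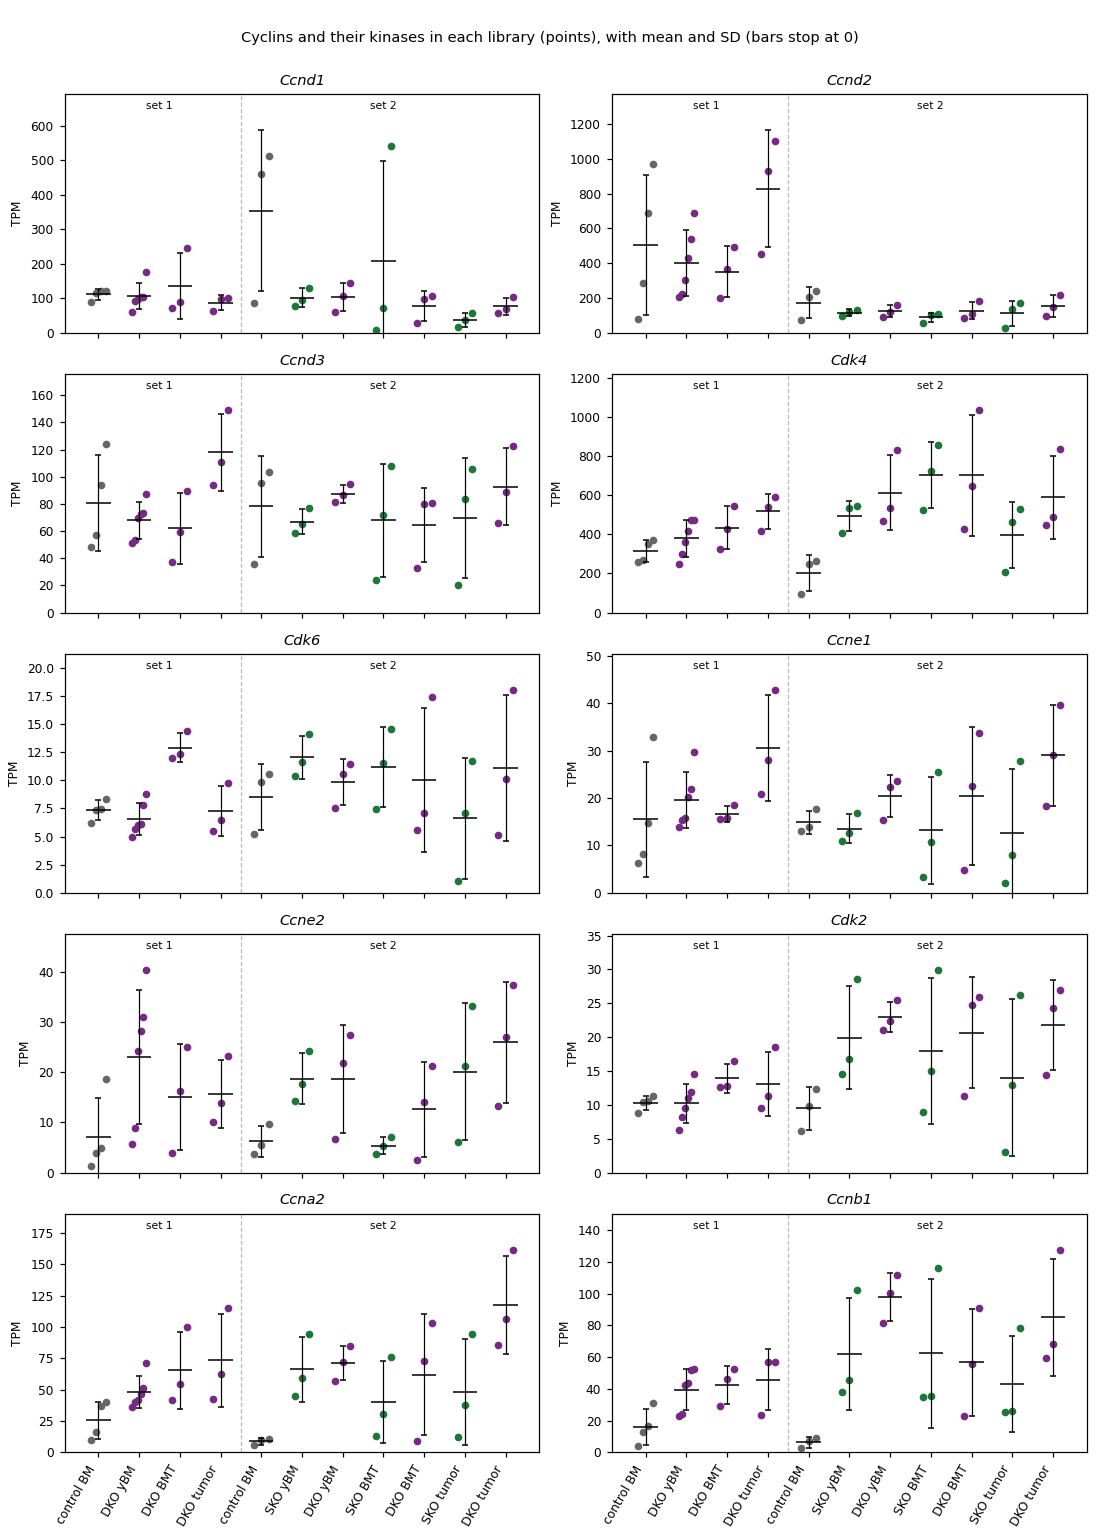
TPM of each of the 10 members (y axis, linear, starting at 0) in the 37 libraries, by group (x axis), with set 1 left and set 2 right of the dashed line. Points are libraries (grey control BM, green SKO, purple DKO), and black lines are the mean and SD. In set 2, Ccnb1 was at 2.68 to 9.25 TPM in the controls and at 23.3 to 128 TPM in all 18 knockout libraries.

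Against control BM, members were called higher in 14 of the 60 pairs of member and comparison in set 2 and in 0 of the 30 pairs in set 1, and no member was called lower. The called members were Ccnb1 in 6 of 6 comparisons of set 2, Cdk4 in 5 and Ccna2 in 3. In yBM 3 of 10 members were called higher for SKO (5.78% of all genes were) and 3 for DKO (9.34%). In BMT 2 were called for SKO (5.00% of all genes) and 2 for DKO (4.22%), and in tumor cells 1 for SKO (2.01%) and 3 for DKO (7.71%). The D-type cyclins, Cdk6, the E-type cyclins and Cdk2 were called in none, although at an unadjusted p under 0.05 the test found Ccnd1 in 1 comparison of set 2, Ccne2 in 2 and Cdk2 in 1. All knockout libraries lay above all controls for 5 members in SKO yBM (30.9% of all genes), 4 in DKO yBM (24.9%), 3 in SKO BMT (17.8%), 2 in DKO BMT (15.9%), 2 in SKO tumor (7.46%) and 6 in DKO tumor (21.8%). The 6 comparisons of set 2 share their 3 control libraries, as do the 3 of set 1 their 4. Of the 14 calls, 6 were kept without each library left out in turn and 6 without control BM 1 of set 2, in which every member but Ccne2 was lower than in both other controls.

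**Figure D2:**
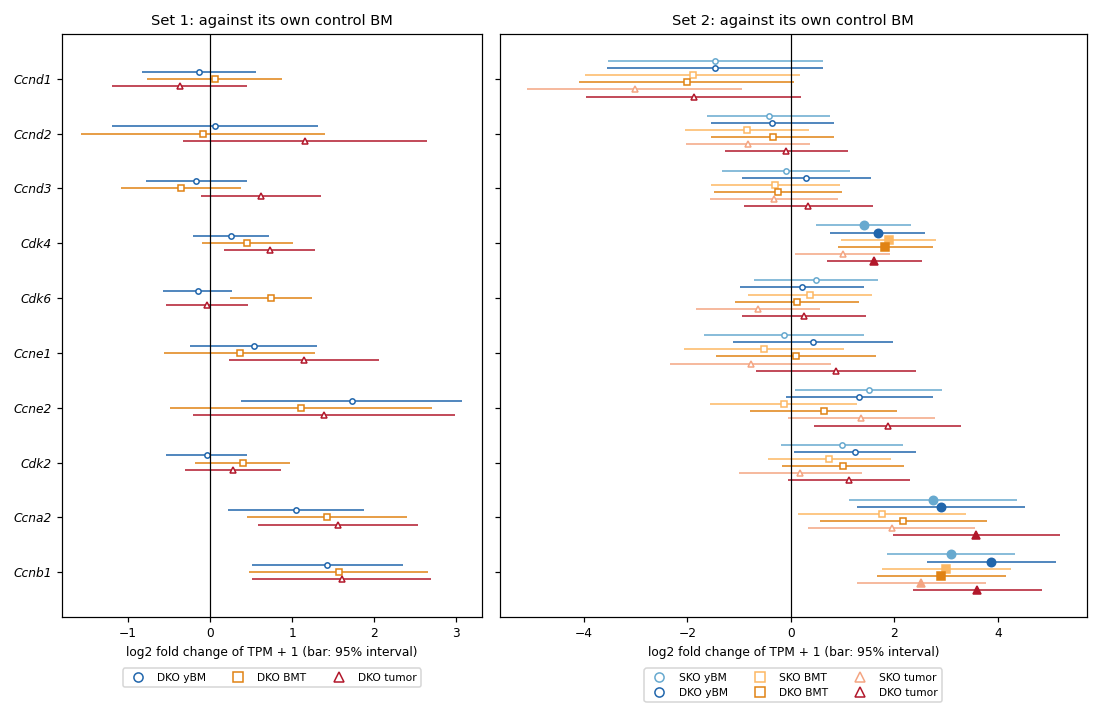
Log2 fold change of TPM + 1 against the control BM of the same set (x axis, with 95% intervals as bars) for the 10 members (y axis). Symbols give the tissue, lighter colours SKO and darker colours DKO, and filled symbols mark adjusted p under 0.05. Filled symbols are found only for Cdk4, Ccna2 and Ccnb1 in set 2, between 1.40 and 3.87.

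Ccnb1, the mitotic cyclin, was called higher in every comparison with the set 2 controls. It was at 2.68, 7.03 and 9.25 TPM in the controls. It was at 38.1, 45.7 and 102 TPM in SKO yBM and at 100.2, 81.5 and 112 TPM in DKO yBM. In BMT it was at 116, 34.9 and 35.8 TPM for SKO and at 91.1, 55.8 and 23.3 TPM for DKO. Every library of these groups lay above every control library. The tumor cells lay above the controls too, with 78.3, 26.1 and 25.5 TPM in SKO tumor and 68.4, 128 and 59.8 TPM in DKO tumor. Ccnb1 was called higher in yBM by 3.10 ± 0.59 (SE, adjusted p = 0.00136) for SKO and by 3.87 (adjusted p = 0.000121) for DKO. In BMT the change was 3.00 (adjusted p = 0.00198) for SKO and 2.90 (adjusted p = 0.00264) for DKO, and in tumor cells 2.52 (adjusted p = 0.00772) and 3.60 (adjusted p = 0.000250). In SKO tumor the call was lost without control BM 1 (2.09, adjusted p = 0.0524). A Ccnb1 pseudogene has its own row in the table and reached at most 0.051 TPM.

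Ccna2, the cyclin of S phase and G2, was at 5.87, 9.57 and 11.01 TPM in the set 2 controls. It was at 44.8, 58.9 and 94.7 TPM in SKO yBM, at 84.6, 72.2 and 57.0 TPM in DKO yBM, and at 106, 161 and 85.9 TPM in DKO tumor. In these 3 groups all libraries lay above the controls and Ccna2 was called higher, by 2.75 ± 0.77 (SE, adjusted p = 0.0239), 2.90 (adjusted p = 0.0135) and 3.58 (adjusted p = 0.00313). Each of the other 3 groups held a library close to the controls, although only DKO BMT overlapped them. At an unadjusted p under 0.05 limma found Ccna2 in all 6 comparisons. SKO BMT was at 76.2, 30.4 and 12.9 TPM, a change of 1.76 (adjusted p = 0.138). DKO BMT was at 103, 73.0 and 9.37 TPM, a change of 2.17 (adjusted p = 0.0744). SKO tumor was at 94.6, 12.5 and 37.6 TPM, a change of 1.95 (adjusted p = 0.121). In 2 of these groups Ccna2 was called on leaving out a single library, without DKO BMT 3 (3.20, adjusted p = 0.00532) and without SKO tumor 2 (2.67, adjusted p = 0.0419). With all libraries kept, it was called with quantile normalization in all 3 (adjusted p = 0.0447 in SKO BMT, 0.0127 in DKO BMT and 0.0121 in SKO tumor) and with median-ratio scaling in DKO BMT (adjusted p = 0.0216) and SKO tumor (adjusted p = 0.0166). The yBM calls were lost without control BM 1 (2.51, adjusted p = 0.102 in SKO and 2.66, adjusted p = 0.0599 in DKO), without DKO yBM 1 (2.77, adjusted p = 0.0521), and in SKO also without control BM 2 (2.82, adjusted p = 0.0603), SKO yBM 2 (2.79, adjusted p = 0.0596) or SKO yBM 3 (2.46, adjusted p = 0.109).

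Cdk4, the kinase of the D-type cyclins with the higher level here, was at 96.4, 247 and 263 TPM in the set 2 controls. It was at 544, 406 and 532 TPM in SKO yBM and at 536, 470.0 and 830.3 TPM in DKO yBM. In BMT it was at 858, 524 and 723 TPM for SKO and at 647, 425 and 1033 TPM for DKO, and in DKO tumor at 834, 486 and 449 TPM. All libraries of these 5 groups lay above all controls. Cdk4 was called higher by 1.40 ± 0.44 (SE, adjusted p = 0.0406) in SKO yBM, 1.68 (adjusted p = 0.0122) in DKO yBM, 1.89 (adjusted p = 0.00738) in SKO BMT, 1.83 (adjusted p = 0.00953) in DKO BMT and 1.61 (adjusted p = 0.0163) in DKO tumor. SKO tumor, at 527, 208 and 461 TPM, overlapped the controls, with a change of 1.00 (adjusted p = 0.168). None of the 5 Cdk4 calls was kept without control BM 1, where the adjusted p was 0.0539 to 0.220. Single libraries of DKO groups decided calls as well: the change was 1.44, adjusted p = 0.0632 without DKO yBM 3, 1.50, adjusted p = 0.0551 without DKO BMT 3 and 1.34, adjusted p = 0.0808 without DKO tumor 1. In SKO yBM the call was lost without any 1 library other than control BM 3, and also with no filter (adjusted p = 0.0693), with median-ratio scaling (adjusted p = 0.0710) and without the libraries of other groups that contradict their Wwox label (adjusted p = 0.0649). The DKO BMT call was lost when only the compared groups were fitted (adjusted p = 0.0720), and the SKO BMT call without SKO BMT 2 and 3, whose Wwox contradicts the label (adjusted p = 0.0667).

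Leukocyte genes moved with these calls: 20 of 20 leukocyte markers were called lower in 5 of the set 2 comparisons and 19 of 20 in SKO BMT. The defining marker Ptprc (CD45) was at 35.4 to 46.7 TPM in the controls and at 0 to 3.83 TPM in the knockout libraries. With the leukocyte level as a covariate, 0 of the 14 calls were kept, but the fitted changes did not all shrink: in the called comparisons Ccnb1 was at 2.11 to 3.46, Ccna2 at 3.99 to 4.83 and Cdk4 at 0.09 to 0.84. Since that level separates all controls of set 2 from all its knockout libraries, the makeup of the cultures and the genotype cannot be told apart there. In set 1, 14 of 20 leukocyte markers were called lower in DKO tumor, 1 in DKO yBM and 0 in DKO BMT. The leukocyte level of all DKO tumor libraries (0.42 to 6.12) was below that of all set 1 controls (6.24 to 8.35). Makeup and genotype cannot be told apart in that comparison either. The number of members called in each set 1 comparison with control was 0 both without and with the covariate. A count of 0 cannot fall, so the covariate fit is not informative here. The part of these markers in the set 1 values was not tested further.

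In set 1, Ccna2 and Ccnb1 also averaged more than the controls in every knockout group, but neither passed the test over all genes. In yBM both were called with median-ratio scaling (Ccna2 at 1.31, adjusted p = 0.0471 and Ccnb1 at 1.68, adjusted p = 0.0186), and Ccnb1 with quantile normalization in yBM (1.67, adjusted p = 0.0254) and tumor (1.70, adjusted p = 0.0487). Ccna2 was at 39.9, 16.5, 36.7 and 9.71 TPM in the controls. It was at 36.4 to 71.6 TPM (median 44.3) in DKO yBM, at 54.5, 99.6 and 41.8 TPM in DKO BMT and at 62.2, 42.9 and 115 TPM in DKO tumor. All libraries lay above all controls for 3 members in BMT (Cdk6, Cdk2 and Ccna2, against 7.14% of all genes), 2 in tumor (Cdk4 and Ccna2, 4.97%) and 0 in yBM (3.19%). The changes of Ccna2 were 1.05 ± 0.39 (SE, adjusted p = 0.1002) in yBM, 1.42 ± 0.46 (SE, adjusted p = 0.0999) in BMT and 1.56 ± 0.46 (SE, adjusted p = 0.0664) in tumor. Ccnb1 was at 31.5, 12.97, 16.5 and 4.37 TPM in the controls. It was at 23.1 to 52.6 TPM (median 43.2) in yBM, at 52.4, 46.2 and 29.4 TPM in BMT and at 57.1, 23.5 and 57.2 TPM in tumor cells, overlapping the controls in each case. Its changes were 1.43 (adjusted p = 0.0550), 1.56 (adjusted p = 0.102) and 1.60 (adjusted p = 0.0851).

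Of the 10 members, 0 were called in set 1 by limma in DKO yBM (7.81% of all genes were), DKO BMT (2.35%) and DKO tumor (3.39%). Without adjustment 3, 3 and 4 members had a p under 0.05, a limit for which no share of all genes is given. Beside Ccna2 and Ccnb1 these were Ccne2 in yBM, at 1.72 ± 0.63 (SE, adjusted p = 0.0992), Cdk6 in BMT, and Cdk4 and Ccne1 in tumor cells. Cdk6, the other kinase of the D-type cyclins, was at 7.37, 7.49, 8.34 and 6.17 TPM in the controls and at 12.0, 14.4 and 12.3 TPM in DKO BMT. These BMT libraries lay above all controls, with a change of 0.74 ± 0.23 (SE, adjusted p = 0.0927). Cdk4 was at 351, 371, 259 and 271 TPM in the controls and at 593, 417 and 541 TPM in DKO tumor, again without overlap, with a change of 0.72 ± 0.26 (SE, adjusted p = 0.118). With median-ratio scaling both Cdk6 in BMT (0.79, adjusted p = 0.0475) and Cdk4 in tumor (0.78, adjusted p = 0.0268) were called. Control BM 1 of set 1 had the highest Ccna2, Ccnb1, Ccne1 and Ccne2 of the 4 controls. Without it, 2 members were called in yBM, Ccnb1 (1.82, adjusted p = 0.0292) and Ccne2 (2.29, adjusted p = 0.0479), and 3 in tumor, Ccne1 (1.58, adjusted p = 0.0276), Ccna2 (1.83, adjusted p = 0.0400) and Ccnb1 (1.99, adjusted p = 0.0362). Without DKO tumor 2, Ccna2 was called in tumor (1.88, adjusted p = 0.0488).

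Whether a DKO effect differed between the sets was tested for each member as the change in set 2 minus that in set 1, and 0 of 10 members were called in yBM, BMT or tumor, where 4.82%, 3.71% and 0.351% of all genes were. Without adjustment limma found 7 of the 30 differences at a p under 0.05, with no share of all genes at that limit given. The nearest were in yBM, with a difference of 2.44 ± 0.75 (SE, adjusted p = 0.0556) for Ccnb1 and 1.43 ± 0.48 (SE, adjusted p = 0.0831) for Cdk4. These calls depend on the processing: in yBM quantile normalization called Cdk4 (adjusted p = 0.0373) and Ccnb1 (adjusted p = 0.0424), and a fit of only the compared groups called Cdk2 (adjusted p = 0.0392), Ccna2 (adjusted p = 0.0458) and Ccnb1 (adjusted p = 0.0395).

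Ccnd1, a D-type cyclin induced by growth factor and Wnt signals, was at 85.8, 461 and 513 TPM in the set 2 controls, so that control BM 1 was far below the others. SKO tumor was at 37.2, 16.6 and 56.5 TPM, below all controls, as were 15.5% of all genes, with a change of −3.02 ± 0.99 (SE, adjusted p = 0.0565). It was called lower there without control BM 1 (−3.85, adjusted p = 0.0291), with the replicate block (adjusted p = 0.0462), median-ratio scaling (−2.80, adjusted p = 0.0356), quantile normalization (−2.72, adjusted p = 0.0408), only the compared groups (adjusted p = 0.0412) and without libraries whose Wwox contradicts the label (adjusted p = 0.00905). It was not called with the smaller pseudocount, without the filter, with the leukocyte covariate, or when any other single control BM or SKO tumor library was left out. DKO tumor was at 103, 69.3 and 56.0 TPM, and SKO BMT at 70.7, 540.1 and 9.29 TPM, which spans the lowest and the highest value of the series. SKO BMT 2, the library with the highest Ccnd1, is 1 of 2 knockout libraries of set 2 in which the leukocyte level was above 1 (5.30, the other being DKO BMT 2 at 4.45), and its summed TPM of mesenchymal and osteoblast markers was the highest of all libraries. Without it, Ccnd1 was called lower in SKO BMT (−3.34, adjusted p = 0.0140). In the other comparisons with the set 2 controls the change was −1.46 to −2.01, and with the leukocyte level as a covariate all 6 changes turned positive. That level separates the set 2 controls (8.48 to 8.75) from their knockout libraries (0.26 to 5.30). The covariate fit extrapolates across this gap, so it cannot decide the sign of these changes. In set 1, where Ccnd1 was at 89.3 to 122 TPM in the controls and 60.7 to 244 TPM in the knockout libraries, the changes were within −0.37 to 0.06.

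Ccnd2, the D-type cyclin with the highest median here, was at 76.3 to 1101 TPM in set 1 and 27.6 to 242 TPM in set 2. In set 1 it was at 688, 972, 76.3 and 284 TPM in the controls and at 930.3, 452 and 1101 TPM in DKO tumor, which overlap, with a change of 1.15 ± 0.70 (SE, adjusted p = 0.347). In set 2 it was at 74.1, 204 and 242 TPM in the controls, and no change from control passed the test (adjusted p = 0.344 to 0.945). Ccnd3, which is prominent in blood cells, was at 48.0 to 124 TPM in the set 1 controls and 37.6 to 149 TPM in the knockout libraries, and at 35.5 to 104 and 20.1 to 123 TPM in set 2. The change of Ccnd3 that was furthest from 0 was 0.62 ± 0.34 (SE, adjusted p = 0.303), in DKO tumor of set 1.

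The share of each D-type cyclin in their summed TPM was compared as a description. Ccnd2 made up 56.9% to 86.4% of the sum in the 12 DKO libraries of set 1 and 31.2% to 80.3% in its controls. In set 2 Ccnd1 held 43.9% to 60.6% of the sum in the controls. It held 27.2% to 42.3% in SKO yBM, 25.0% to 41.0% in DKO yBM, 19.3% to 36.0% in DKO BMT, 14.6% to 25.8% in SKO tumor and 22.4% to 26.0% in DKO tumor. SKO BMT ran from 6.996% to 75.0%, so it held both the smallest and the largest Ccnd1 share of set 2. Ccnd3 held 12.1% to 18.2% in the set 2 controls, 19.0% to 26.9% in SKO yBM, 23.5% to 38.4% in DKO yBM, 9.94% to 45.5% in SKO BMT, 22.1% to 26.9% in DKO BMT and 27.7% to 32.7% in the 6 tumor libraries. Of the kinases, Cdk6 was a small part in all libraries, at 0.493% to 5.10% of Cdk4 and Cdk6 together.

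**Figure D3:**
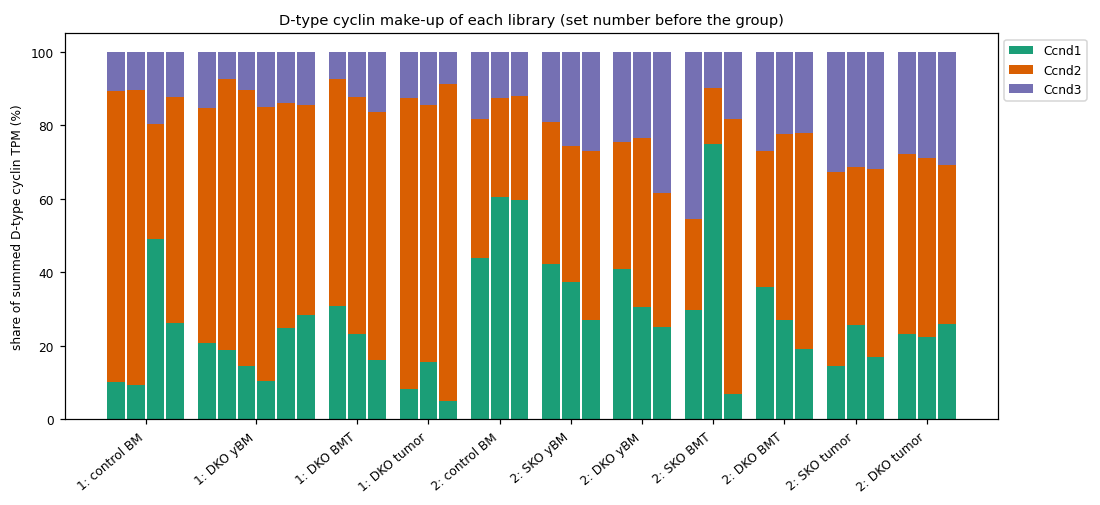
Share of Ccnd1, Ccnd2 and Ccnd3 in the summed D-type cyclin TPM (y axis, percent, stacked to 100) of each of the 37 libraries (bars, grouped on the x axis by set and group). Ccnd2 was the largest share in set 1 apart from 1 control, while Ccnd1 held 43.9% to 60.6% in the set 2 controls and at most 42.3% in the set 2 knockout libraries other than SKO BMT 2 (75.0%).

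Ccne1 and Ccne2, the cyclins of the G1 to S transition, varied widely between libraries of a group. Ccne1 was at 13.1, 17.6 and 13.9 TPM in the set 2 controls and at 39.5, 29.1 and 18.3 TPM in DKO tumor, above all controls, with a change of 0.87 ± 0.74 (SE, adjusted p = 0.470). Its lowest value of the series, 2.00 TPM, was in SKO tumor 2. In set 1 control BM 1 was at 33.0 TPM and the other controls at 14.6, 8.13 and 6.29 TPM, against 13.8 to 42.7 TPM in the DKO libraries. The DKO tumor libraries among these were at 42.7, 20.8 and 28.1 TPM, overlapping the controls, with a change of 1.14 ± 0.43 (SE, adjusted p = 0.133). Ccne2 was at 5.40, 9.72 and 3.63 TPM in the set 2 controls. It was at 14.3, 17.6 and 24.3 TPM in SKO yBM and at 13.4, 37.4 and 27.1 TPM in DKO tumor, in both groups above all controls, with changes of 1.50 ± 0.68 (SE, adjusted p = 0.148) and 1.87 (adjusted p = 0.0655). In SKO BMT it was at 7.08, 3.79 and 5.20 TPM, which overlaps the controls. Fitted on the compared groups alone, Ccne2 was called in both SKO yBM (adjusted p = 0.0221) and DKO tumor (adjusted p = 0.0228). In DKO tumor it was also called with the replicate block (adjusted p = 0.0485) and with quantile normalization (adjusted p = 0.0453).

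Cdk2, the kinase partner of the E-type cyclins and Ccna2, was at 6.19, 9.82 and 12.4 TPM in the set 2 controls. It was at 25.5, 22.4 and 21.1 TPM in DKO yBM, with a change of 1.24 ± 0.56 (SE, adjusted p = 0.134), and at 14.5, 16.7 and 28.6 TPM in SKO yBM, with a change of 0.99 (adjusted p = 0.252). Both groups lay above all controls. DKO tumor, at 14.4 to 26.9 TPM, did so too, with a change of 1.13 (adjusted p = 0.186), while the other groups overlapped the controls. In DKO yBM Cdk2 was called with median-ratio scaling (1.11, adjusted p = 0.0354), quantile normalization (adjusted p = 0.0166) and only the compared groups (adjusted p = 0.0216). With quantile normalization Cdk2 was also called in DKO BMT (adjusted p = 0.0486) and DKO tumor (adjusted p = 0.0318). Its lowest value was 3.04 TPM, again in SKO tumor 2. In set 1 the controls were at 8.86 to 11.3 TPM and the DKO libraries at 6.25 to 18.5 TPM, with changes within −0.04 to 0.39. Cdk6 in set 2 was at 5.19 to 10.6 TPM in the controls and 1.03 to 18.05 TPM in the knockout libraries, with changes of −0.63 to 0.49.

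The comparison of DKO with SKO asks what the loss of Wwox adds to that of Trp53, and limma called 0 of 10 members in yBM, BMT or tumor. In the 3 comparisons 0.0207%, 0% and 0% of all genes were called. Without adjustment 0, 0 and 2 members had a p under 0.05, with no share of all genes at that limit given. One of them was Ccne1, at 39.5, 29.1 and 18.3 TPM in DKO tumor and 27.7, 2.00 and 7.96 TPM in SKO tumor, which overlap, with a difference of 1.64 ± 0.74 (SE, adjusted p = 0.585). The other was Ccna2, with a difference of 1.64 ± 0.77 (SE, adjusted p = 0.592), and its libraries overlapped too. The intervals leave room for differences of either sign: for DKO against SKO yBM the 95% interval was −0.64 to 1.20 for Cdk4, −0.47 to 2.02 for Ccnb1 and −2.10 to 2.07 for Ccnd1. The libraries labelled DKO tumor in set 2 had 4.26 to 5.23 TPM of Wwox, against 2.97 to 4.05 TPM in the controls. Those labelled SKO BMT 2 and 3 had 0.102 and 0.0857 TPM, close to the 0.0164, 0.300 and 0.242 TPM of DKO BMT. By Wwox TPM, only the yBM comparison set low libraries (0.0288 to 0.780 TPM in DKO) against higher ones (3.12 to 7.87 TPM in SKO) throughout. A transcript that lacks only the deleted exons would still be counted, and whether any library is mislabelled was not tested. Until that is known, the BMT and tumor comparisons cannot be read as what the loss of Wwox adds.

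In the DKO yBM libraries of set 1, mice of 4 months were compared with those of 1.5 months, and limma called 0 of 10 members (0 at an unadjusted p under 0.05), with 0.00694% of all genes called. The difference furthest from 0 was in Ccnd2, at 432, 225 and 208 TPM against 304, 691 and 538 TPM, which overlap, with a difference of −0.82 ± 0.74 (SE, adjusted p = 1.00).

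Other genes of the pathway were taken from lists. Ccng1, a cyclin that p53 induces, was called lower in all 9 comparisons with control, from −2.51, adjusted p = 0.00476 in set 1 DKO yBM to −3.50, adjusted p = 2.07e-05 in set 2 SKO BMT. Ccng2, its relative, was called in none. Cdkn1a, the p53 target that encodes the CDK inhibitor p21, was called lower in the 6 comparisons of set 2, from −4.63, adjusted p = 0.00426 in SKO BMT to −6.65, adjusted p = 9.32e-05 in SKO tumor. In set 1 it was called in DKO tumor (−4.02, adjusted p = 0.0324) but not in yBM (−2.36, adjusted p = 0.0581) or BMT (−0.99, adjusted p = 0.553). The other CDK inhibitors gave few calls, namely Cdkn1b lower in set 1 DKO yBM (−0.91, adjusted p = 0.0338), Cdkn2c higher in set 2 DKO yBM (1.40, adjusted p = 0.0152) and Cdkn2a higher in set 2 SKO BMT (1.51, adjusted p = 0.0421).

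Among the targets of the kinases, the pocket protein genes Rb1 and Rbl2 fell in set 2. Rbl2 was called lower in all 6 comparisons with control (−1.14 to −1.79), and Rb1 in all but SKO yBM (−1.29 to −1.72). In set 1 Rbl2 was called in DKO tumor (−1.32, adjusted p = 0.0322). Rbl1, the third member, was called in none. Of the 10 E2F and partner genes, E2f7, an E2F that represses, was called higher in set 1 DKO yBM (1.29) and DKO tumor (1.83) and in set 2 SKO yBM (2.60), DKO yBM (2.84) and DKO tumor (2.56). Tfdp1, the E2F partner, was called higher in DKO yBM (1.39) and DKO tumor (1.41) of set 2.

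Partners and activators of the mitotic cyclins were called together with Ccnb1. Of 7 other cell cycle cyclins, kinases and kinase subunits tested in set 2, 4 were called higher in SKO yBM, 5 in DKO yBM, 3 in SKO BMT, 3 in DKO BMT, 3 in SKO tumor and 5 in DKO tumor, and 0 lower. In each of these the called genes included Cdk1, the partner of cyclin B1 (1.59 to 2.59), and the small subunits Cks1b (1.32 to 2.19) and Cks2 (2.07 to 3.24). Cdc25c, a phosphatase that activates Cdk1, was called in all 6 (1.85 to 2.82), and Cdc20, which directs cyclin B1 to breakdown, in all but SKO tumor (2.83 to 3.59). In set 1, of 8 such cyclins, kinases and subunits tested, Ccnb2 was called higher (1.11, adjusted p = 0.0478) and Ccno lower (−0.75, adjusted p = 0.0466) in yBM, Cks1b was called higher in tumor (1.29, adjusted p = 0.0400), and 0 were called in BMT. The phosphatase gene Cdc25b was called higher in set 1 yBM (0.91), BMT (1.54) and tumor (1.40). Of the 16 cyclins and kinases that act in transcription 1 was called in set 2, Cdk9 in SKO tumor (−1.21, adjusted p = 0.0416), and 2 in set 1, Ccnt2 (−0.83, adjusted p = 0.0310) and Ccnl2 (−0.78, adjusted p = 0.0362) in DKO yBM.

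The median change of the 10 members in set 2 was 0.74 and 0.83 in yBM (SKO and DKO), 0.11 and 0.37 in BMT and −0.07 and 1.00 in tumor cells. Over all genes tested it was 0.24, 0.07, 0.07, 0.09, −0.11 and 0.11 in the same order. In set 1 the members' median was 0.16, 0.42 and 0.93 in yBM, BMT and tumor, beside −0.22, −0.06 and −0.09. Of the 20 cell division markers, genes whose products copy DNA or build the spindle, 9, 13, 5, 7, 3 and 14 were called higher in the set 2 comparisons and 6, 4 and 8 in those of set 1. Their level (mean log2(TPM + 1)) was 3.06 to 3.76 in the set 2 controls and 3.20 to 6.40 in the knockout libraries, lowest in SKO tumor 2 (3.20), DKO BMT 3 (3.91) and SKO BMT 3 (4.01). These are the libraries with the lowest Ccna2 among the set 2 knockouts.

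Over the 37 libraries, with each set centred on its own mean, Ccna2 and Ccnb1 had a Pearson r of 0.97 and 0.91 with the level of the cell division markers, Cdk2 of 0.84, Ccne1 of 0.72, Cdk4 of 0.60, Ccne2 of 0.57, Cdk6 of 0.56, Ccnd3 of 0.48, Ccnd2 of 0.23 and Ccnd1 of −0.01. With the leukocyte markers r was 0.57 for Ccnd1, −0.62 for Cdk4 and −0.62 for Ccnb1. Libraries of a group share genotype and tissue, so these values are descriptions, as are the correlations between genes.

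**Figure D4:**
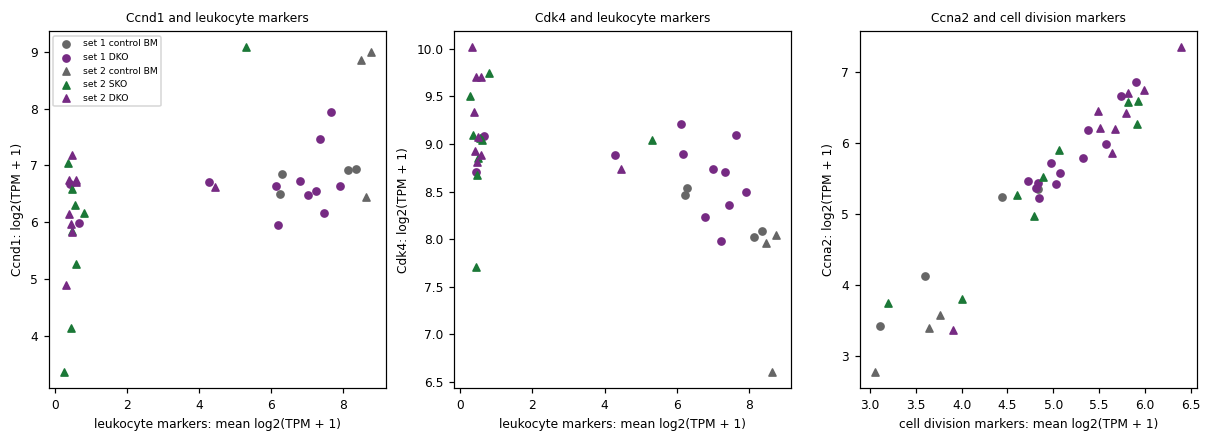
Log2(TPM + 1) of Ccnd1 and Cdk4 against the leukocyte marker level, and of Ccna2 against the cell division marker level (mean log2(TPM + 1) of 20 genes each), in 37 libraries. Circles are set 1 and triangles set 2 (grey control BM, green SKO, purple DKO). The set 2 controls lie at 8.48 to 8.75 on the leukocyte axis, apart from their knockouts at 0.26 to 5.30, and Ccna2 followed the cell division markers (r = 0.97 with each set centred on its own mean).

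The genes whose pattern was most like that of each member were found among 9307 genes by the same centred correlation. For Ccnb1 they were Cenpn, a centromere protein gene (r = 0.98), and Tyms, the thymidylate synthase gene (0.96). For Ccna2 the kinase gene Melk came first (0.97). For Cdk4 they were Rplp0, a ribosomal stalk protein gene (0.95), and Tsr3 (0.94), whose product modifies ribosomal RNA. Ccne2 was closest to Cenpq (0.90) and Hells (0.88). Cdk2 was closest to Enoph1 (0.93) and Prpf4 (0.92). Cdk6 was closest to Ddi2 (0.90) and Rprd1b (0.88). Ccnd2 was closest to Kctd10 (0.75) and Ankrd50 (0.74). Ccne1 was closest to Erf (0.86) and Ccnd3 to Plod3 (0.90). Ccnd1 was closest to Nkd2, which encodes an inhibitor of Wnt signalling (0.78), and LTO1 (0.78). Among the members themselves r was highest for Ccna2 with Ccnb1 (0.88) and lowest for Ccnd1 with Ccnb1 (−0.22).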

How the data were processed

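RNA-seq of 37 libraries of cultured mouse BM and tumor cells was analysed. The authors trimmed reads with Trim Galore (0.6.1 in the submitters' processing notes, which also name mm39), quantified transcripts with salmon and deposited TPM per gene, with a poly-A, strand-marking kit. Of 51123 gene IDs, 48246 were matched to a symbol. In each set, genes that reached 1 TPM in 3 or more libraries were tested with limma 3.58.1 (R 4.3.3) on log2(TPM + 1), a trended prior and Benjamini-Hochberg adjustment, checked on simulated data. Differences between sets were tested as interactions over all 37 libraries. The members, gene lists and tests were chosen with earlier results of these data known. Named genes are the members, at most 3 list members of smallest p per comparison, and the 2 genes of highest correlation per member (symbol known, no numbered gene models, mean of at least 5 TPM); a few genes that the rule names are not reported here. The 3 control columns of set 2 were matched to their group only. Same-numbered DKO and SKO BMT libraries of set 2 deviated together (r = 0.288, 0.286 and 0.379), and a replicate block left 0 members called there. In no other pair of groups were all r above the limit of 0.1. All were positive but smaller in some pairs, such as DKO and SKO tumor of set 2 (0.0884, 0.0190 and 0.166). Alternatives were a pseudocount of 0.1, no filter, median-ratio scaling, quantile normalization, only the compared groups, the replicate block and leaving out each library. After the values were seen, libraries whose Wwox or Trp53 went against the label were left out, and the leukocyte level was added as a covariate. Promoters are from RefSeq, GRCm38.p6; no coordinates were converted.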

Additional observations from a re-analysis of the deposited data

Results flagged for a closer look

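In set 2 yBM, Ccnd3 was above the control mean of 78.3 TPM in all 3 DKO libraries (86.2, 81.7 and 94.3 TPM, mean 87.4) and below it in all 3 SKO libraries (58.8, 64.9 and 77.1 TPM, mean 66.9). The opposite sides drew attention to it, and that pattern was not tested. The direct comparison of DKO with SKO gave 0.39 ± 0.59 (SE, adjusted p = 1), and the controls themselves ran from 35.5 to 104 TPM. No library stood far from the others of its group in the 20 pairs of member and group with 4 or more libraries.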

How the results depend on the processing

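The number of members called against control was 0 in each set 1 comparison. It became 3 in DKO yBM, 1 in DKO BMT and 1 in DKO tumor with median-ratio scaling, and 1 in each with quantile normalization. Those 3 in DKO yBM were Ccna2, Ccnb1 and a member whose main change was under 0.5 in size. Such small changes were followed only in counts. Leaving out each library gave 0 to 2 in yBM, 0 to 0 in BMT and 0 to 3 in tumor. In set 2 the counts were 3, 2 and 1 for SKO and 3, 2 and 3 for DKO (yBM, BMT and tumor), and with the leukocyte level as a covariate 0 in all. The fitted changes of Ccnb1 were then 2.11 to 3.46 and those of Ccna2 where it had been called 3.99 to 4.83. These fitted changes rest on extrapolation, since the level separates all set 2 controls from all set 2 knockout libraries. Leaving out each library gave 1 to 3 in yBM for both, 1 to 3 (SKO) and 1 to 2 (DKO) in BMT, and 1 to 2 (SKO) and 2 to 3 (DKO) in tumor. SKO BMT went to 1 without libraries whose Wwox contradicts the label. DKO BMT went to 4 with quantile normalization and 1 with only the compared groups, and DKO tumor to 5 with quantile normalization. SKO tumor went to 3 with median-ratio scaling, 4 with quantile normalization, and 2 with only the compared groups, with the replicate block and without libraries whose Wwox contradicts the label. The replicate block moved no other count past 1.5 times. The difference between sets in DKO yBM went from 0 to 2 with quantile normalization, 3 with only the compared groups and 0 to 2 on leaving out each library. The counts for DKO against SKO, for age and for the other differences between sets were 0 in every fit run. The calls over all genes also changed with median-ratio scaling and quantile normalization. They are given below for the comparisons with control in which those settings moved a member count. The cause of these changes was not tested.

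With the leukocyte covariate, the change of Ccnd1 turned to 3.71 in SKO yBM, 3.67 in DKO yBM, 2.22 in SKO BMT, 2.36 in DKO BMT, 2.12 in SKO tumor and 3.28 in DKO tumor, and its differences between sets to 1.11 in yBM and 0.22 in BMT. In SKO BMT Ccnd2 turned to 0.17 and Ccne1 to 0.89, and in SKO tumor Ccnd2 turned to 0.43, Cdk4 to −0.31 and Ccne1 to 0.98. The leukocyte level separates all set 2 controls from all set 2 knockout libraries, so these signs rest on extrapolation. Without libraries whose Wwox contradicts the label, Ccne1 turned to 0.75 in SKO BMT and to −0.65 in DKO against SKO BMT, where 1 SKO BMT library is left and is assumed to vary like the other groups. On leaving out each library, Ccne1 ranged from −1.16 to 0.16 in SKO BMT, −1.60 to 0.028 in SKO tumor and −0.063 to 1.38 in DKO against SKO BMT, Cdk6 from −1.19 to 0.14 in SKO tumor, and, in DKO against SKO tumor, Ccnd2 from −0.060 to 1.23, Ccnd3 from −0.063 to 1.11 and Ccne2 from −0.15 to 1.00. Of 89 changes of at least 0.5 in size, 18 changed sign in at least 1 fit, and of 71 smaller ones 51 did. No value could be had without libraries whose Wwox contradicts the label for DKO tumor in set 2, its comparison with SKO tumor, its difference between sets and DKO yBM by age.

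Scaling moved the whole distribution. The median change of all genes in set 1 DKO yBM was −0.22, and the calls went from 241 higher and 884 lower to 862 and 528 with median-ratio scaling. In DKO BMT of set 1 they went from 138 and 201 to 386 and 256, and in DKO tumor from 171 and 318 to 411 and 276. In SKO tumor of set 2 they went from 291 and 1383 to 756 and 1574, or to 1256 and 1484 with quantile normalization, which also moved SKO BMT from 723 and 1208 to 1910 and 1537 and DKO BMT from 610 and 1127 to 1674 and 1456. Under quantile normalization DKO tumor of set 2 went from 1115 higher and 1371 lower to 1979 and 1698. The set 1 calls with it were 619 and 355 in DKO yBM, 452 and 281 in DKO BMT and 590 and 287 in DKO tumor. TPM hold no depth, so counting error limits low values such as those of Cdk6 by an unknown amount.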
